A study of Mus musculus with 4 samples.

Results

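Chromatin accessibility around 7 mouse genes of inflammation was examined in bone marrow monocytes from the femur and the mandible. The genes were Il1b, Tnf and Il6, which encode cytokines, Nlrp3, which encodes an inflammasome sensor, Cxcl1 and Cxcl2, which encode chemokines, and Ptgs2, which encodes the cyclooxygenase of inducible prostaglandin synthesis. Every peak that overlapped 1 of 6 fixed windows of GRCm39 was taken, 1 window per gene except that Cxcl1 and Cxcl2 shared one. The peaks were taken by position and not by measured values, which gave 32 of the 57090 peaks. The genes themselves were chosen with earlier results of these data known. ATAC-seq uses a transposase that cuts open DNA and leaves sequencing adapters, so the number of reads in a peak measures how accessible that region was. There were 4 libraries, each made from 20000 cells out of 4 pooled mice, which the sample labels give as males of 2 months. Femur replicate 1 and mandible replicate 1 came from the pool of batch A, and femur replicate 2 and mandible replicate 2 from the pool of batch B. The labels name no treatment and no engineered allele for either site. The study's methods give C57Bl/6J mice and name both sexes for the monocyte isolation, whereas the labels give males only. The cells were the fraction that did not bind a magnetic column after labelling of other cell types with antibodies, and the labels call them CD11b+. Whether this fraction carried the open chromatin of monocytes was not checked here against marker genes, because gene positions on GRCm39 were not used. In such bulk libraries, fewer cells of a type and less open DNA per cell cannot be told apart.

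These genes belong to one well-known circuit. Microbial products and cytokines activate NF-kappaB, a transcription factor that drives Il1b, Tnf, Il6, Cxcl1, Cxcl2, Ptgs2 and Nlrp3, and the NLRP3 inflammasome then activates the caspase that cuts the interleukin-1 beta precursor into its active form. In bone, interleukin-1 beta, TNF and interleukin-6 promote the formation of osteoclasts, the bone-resorbing cells that arise from monocytes. The study measured accessibility to look for regulatory differences between myeloid cells of the mandible and the femur, and the loci of these genes are one place to look.

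The promoters of all 7 genes were found in RefSeq sequences of GRCm38.p6, an older build than that of the peaks, so no peak was placed on them. RefSeq gave 8 starts, 2 of them for Nlrp3, and the window searched ran from 250 bases before to 50 bases after each start. A 9-base NF-kappaB motif, GGNNTTTCC, was searched on both strands. It was present at 5 of the 8 starts and in 4 of the 7 genes, against 5.82% of all 32851 promoters in the same table. Il6 and each Nlrp3 start had 1 match and both chemokine genes had 2, whereas the windows of Il1b, Tnf and Ptgs2 did not hold these letters. A match is a description of the sequence and not evidence of binding. The 130 bases that end just before the start are printed for 4 starts with a match, because these show how the chemokine neighbours, the cytokine and the sensor differ in number and place of the motif. Capitals mark the motif and lower case the rest, 5′ to 3′ on the strand of the gene, which is the plus strand for all 4.
Il6 (chr5:30012984-30013113): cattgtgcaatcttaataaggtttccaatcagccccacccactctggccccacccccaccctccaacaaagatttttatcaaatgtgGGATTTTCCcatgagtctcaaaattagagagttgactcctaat
Cxcl1 (chr5:90891115-90891244): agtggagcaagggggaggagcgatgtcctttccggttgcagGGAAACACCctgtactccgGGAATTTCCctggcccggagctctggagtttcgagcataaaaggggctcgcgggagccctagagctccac
Cxcl2 (chr5:90903769-90903898): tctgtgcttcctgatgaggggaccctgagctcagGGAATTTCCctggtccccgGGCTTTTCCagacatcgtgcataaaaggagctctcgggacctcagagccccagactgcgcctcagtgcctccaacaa
Nlrp3, first start (chr11:59541439-59541568): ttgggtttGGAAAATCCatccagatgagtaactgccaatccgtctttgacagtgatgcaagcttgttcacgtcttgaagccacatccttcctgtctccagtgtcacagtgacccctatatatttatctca

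The upstream match in Cxcl1 and the match at the first Nlrp3 start read on the minus strand, so their capitals show the reverse complement of the motif. Both chemokine genes held the same 9 letters, GGAATTTCC, once. Of the other motifs searched, TATAAA was found at Il1b and Tnf (13.6% of all promoters), the AP-1 motif TGANTCA at Il6 (7.81%) and the C/EBP motif TTGCNNCAA at Cxcl1 (2.08%). The CRE letters TGACGTCA and the PU.1 letters GAGGAAGT were in none of the 8 windows, and 1.79% and 3.20% of all promoters held them.

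The total counts in peaks ranged from 27464565 in mandible replicate 2 to 75294068 in femur replicate 2. Member peaks took 0.0634% of the counts in femur replicate 1 (95% Wilson interval 0.0626% to 0.0641%), 0.0584% in femur replicate 2 (0.0578% to 0.0589%), 0.0639% in mandible replicate 1 (0.0631% to 0.0648%) and 0.0686% in mandible replicate 2 (0.0676% to 0.0696%). These intervals cover counting error only, and they take each count as independent, although both reads of a fragment could be counted. Levels are loess-normalized CPM, that is, counts per 1000000 counts of a library of average size after a correction that follows the mean level of a peak. Where a pair of values is given for a site, the first is replicate 1 (batch A) and the second is replicate 2 (batch B). The member peaks had a median length of 623 bp against 364 bp over all peaks, and a median level of 15.4 CPM against 6.71 CPM over all peaks. Per kb of peak the medians were 21.0 and 19.5 CPM. Femur replicate 2 had the lowest level of the 4 libraries in 15 of the 32 member peaks, where 32.6% of all peaks had their lowest level in that library. Mandible replicate 2 had the highest level in 13 member peaks, where 26.6% of all peaks had their highest level there. The part of these library differences in the results below was not tested beyond leaving each library out.

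The 6 windows, from 40 kb (Tnf) to 70 kb (Nlrp3) long, differed in how much of them lay in peaks. The Tnf window held 9 peaks that covered 7893 bp (19.7% of its length) and the Nlrp3 window 9 peaks over 9720 bp (13.9%). The Il1b window held 6 peaks over 4234 bp (7.06%) and the window of Cxcl1 and Cxcl2 5 peaks over 2813 bp (5.63%). Il6 had 2 peaks over 963 bp (1.93%), and Ptgs2 had a single peak of 771 bp (1.54%). Per kb of peak, Il1b had the highest summed level, 33.3 ± 2.00 CPM per kb (SD, n = 4), and its 4 libraries, from 30.6 to 35.2, lay above all libraries of the next locus, Tnf, at 24.3 ± 1.21 with a range from 22.9 to 25.4. After Tnf followed Ptgs2 (23.9 ± 4.57), Cxcl1 and Cxcl2 (23.3 ± 1.93), Il6 (22.1 ± 3.14) and Nlrp3 (20.3 ± 3.57). Each neighbouring pair in this order from Tnf downward had overlapping ranges, so the order among these loci was not larger than the spread between libraries.

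**Figure D1:**
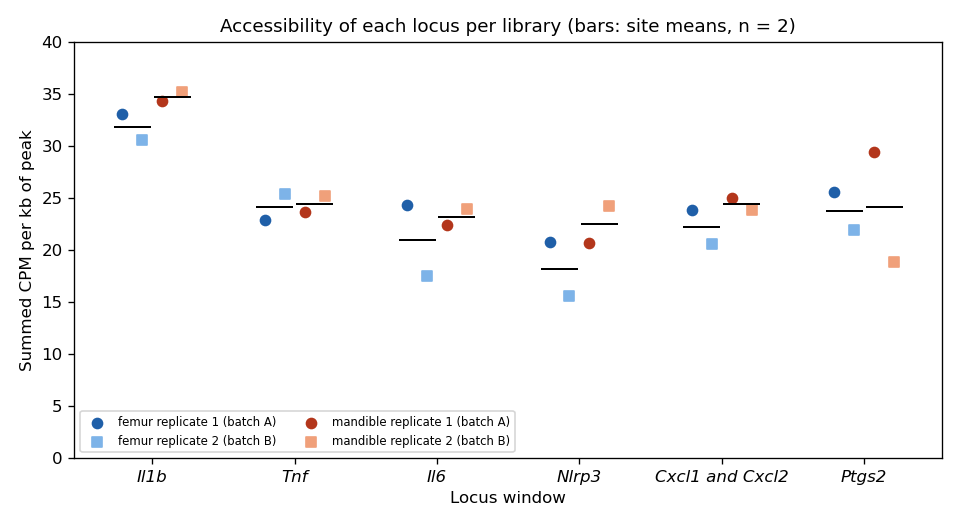
Summed loess-normalized CPM of the peaks of each window, divided by the kb of peak sequence, for each of the 4 libraries; horizontal bars are the means of the 2 libraries of a site. Il1b stood above the other 5 loci in every library, and femur replicate 2 was the lowest library at Il1b, Il6, Nlrp3 and the chemokine window.

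Between the sites, no member peak passed an adjusted p-value of 0.05 in edgeR's quasi-likelihood test over all 57090 peaks, which called 0.00701% of all peaks (4). At an unadjusted p-value under 0.05, 3 of the 32 member peaks were higher in mandible, 2 at Nlrp3 and 1 at Il1b, and 0 were lower. Over all peaks these shares were 1.61% higher and 1.1% lower. The adjusted p-values of the members from edgeR were 0.136 and 0.213 for 2 Nlrp3 peaks and 0.999999 for the other 30. With 2 pools of mice per site, edgeR took the spread of a peak partly from the fit over all 57090 peaks. The p-values thus do not measure the spread between these pools alone, and this test did not use the pairing by pool. Both mandible libraries lay above both femur libraries in 7 member peaks (21.9%, against 13.3% of all peaks) and below both in 3 (9.38%, against 13.8% of all peaks). The log2 difference of mandible minus femur had a median of 0.14 over the members, with a range from -0.41 to 1.39, and a median of -0.0045 over all peaks, and 22 of the 32 members were above 0 (49.1% of all peaks). The standard error of a member's difference ranged from 0.118 to 0.316 with a median of 0.221, and 21 of the 32 differences were smaller than their own standard error. The median over the members was 0.03 within batch A against 0.16 within batch B, where the medians over all peaks were -0.0034 and -0.010. In both batches 8 members (25%) were higher in mandible and 4 (12.5%) lower, and 20 (62.5%) had opposite signs. Over all peaks these shares were 20.3%, 21.96% and 57.7%, so the share with opposite signs was near that of all peaks. Without femur replicate 2 the median log2 difference of the members was 0.07, and without mandible replicate 2 it was also 0.07. Over the 30 members other than the 2 Nlrp3 peaks with the largest differences the median was 0.09, with 20 above 0. Of these 30, both mandible libraries were above both femur libraries in 5 and below both in 3.

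**Figure D2:**
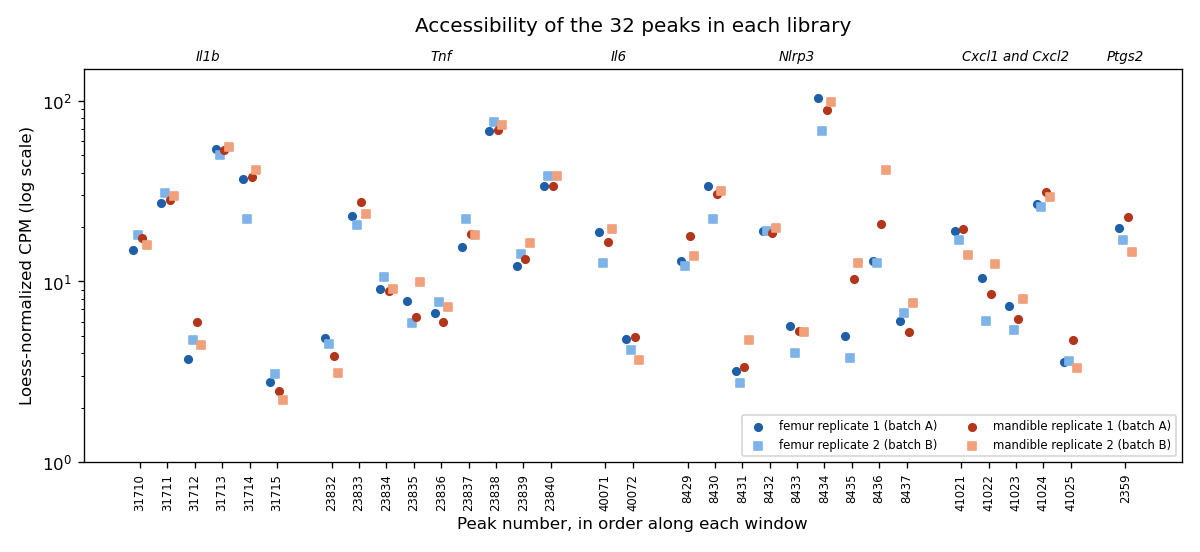
Loess-normalized CPM (log scale) of each of the 32 peaks in each library, in order along the windows. In most peaks the 4 points lie close together or the sites overlap, while Peak_8435 and Peak_8436 at Nlrp3 have both mandible points above both femur points.

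**Figure D3:**
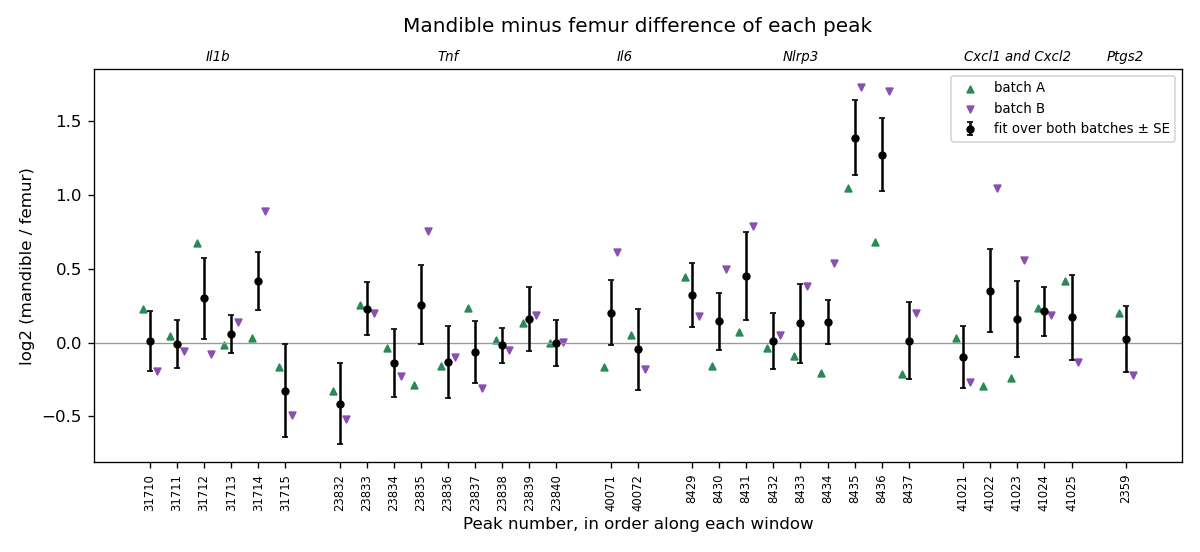
The log2 difference of mandible minus femur of each peak: black points are the fit over both batches with its standard error, and triangles the difference within batch A and batch B. All but 2 fitted differences lie between -0.41 and 0.45, and Peak_8435 and Peak_8436 reach 1.39 and 1.27.

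NLRP3 is the sensor that assembles the best-studied inflammasome, and its locus held the largest differences among the members. Its strongest peak, Peak_8434 (chr11:59431996-59435243, 3248 bp), had the highest level of all members, with 103 and 67.9 CPM in femur and 89.6 and 98.8 CPM in mandible. The sites overlapped, since femur replicate 1 was the highest library and femur replicate 2 the lowest. The log2 difference was 0.14 (SE 0.148, edgeR's unadjusted p = 0.359), and its sign turned from -0.20 within batch A to 0.54 within batch B. Without femur replicate 2 it was -0.14. Of the 6 shorter or weaker peaks around it, 2 had both mandible libraries above both femur libraries, by small margins. These were Peak_8429 of 315 bp, with 13.1 and 12.2 CPM in femur and 17.8 and 13.8 CPM in mandible (log2 difference 0.32, SE 0.215), and Peak_8431 of 368 bp, with 3.19 and 2.74 CPM in femur and 3.36 and 4.75 CPM in mandible (log2 difference 0.45, SE 0.298). The other 4 overlapped between the sites. With loess and all libraries, all 9 peaks of the window had a log2 difference above 0, from 0.01 to 1.39. Over all peaks 49.1% were above 0. Within batch A, Peak_8430, Peak_8432, Peak_8433, Peak_8434 and Peak_8437 were below 0. With library size alone Peak_8432 (-0.06), Peak_8433 (-0.07) and Peak_8437 (-0.17) were below 0. Without femur replicate 2, Peak_8430 (-0.14) and Peak_8433 (-0.11) were below 0, as Peak_8434 was. Peak_8437 was also below 0 with TMM (-0.07), DESeq2 (-0.06) and the batch block (-0.0033). It was -0.05 without femur replicate 1 and -0.28 without mandible replicate 2, where Peak_8432 was -0.03. The other peaks of the window were above 0 in these last settings.

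Peak_8435 (chr11:59442329-59443696, 1368 bp), 7085 bp beyond the strongest peak, was different. Its level was 5.0 and 3.79 CPM in femur and 10.3 and 12.6 CPM in mandible, from counts of 225 and 313 in femur and 307 and 332 in mandible. Both mandible libraries were well above both femur libraries. The log2 difference was 1.39 (SE 0.253), a fold of 2.62, with an unadjusted p of 3.43e-05 and an adjusted p of 0.136 from edgeR. Within batch A it was 1.05, against 1.73 within batch B. Its p-value ranked 14 among all 57090 peaks. Peak_8435 also had the lowest level per kb of all 57090 peaks, at 5.79 CPM per kb.

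The next peak, Peak_8436 (chr11:59445015-59447329, 2315 bp), lies 1318 bp further on and is named here after its values were seen. It had 13.03 and 12.7 CPM in femur and 20.9 and 41.3 CPM in mandible. The femur libraries were alike, and the mandible libraries were both higher but far apart. The log2 difference was 1.27 (SE 0.247), a fold of 2.42, with an unadjusted p of 7.1e-05 and an adjusted p of 0.213 from edgeR. Within batch A it was 0.68, against 1.70 within batch B. Like its neighbour it was broad and shallow, at 9.50 CPM per kb.

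With batch as a block, which pairs the libraries of the same pooled mice, both of these peaks passed the threshold. The adjusted p-values from edgeR were 0.00312 for Peak_8435 and 0.000494 for Peak_8436. In this fit edgeR took the spread of a peak almost wholly from all peaks (weight in degrees of freedom 444, against 15.7 in the main fit). Crossed pairs, which match libraries of different pools, also called both peaks, so the calls cannot be credited to the pairing by pool. DESeq2, without a block, gave adjusted p-values of 0.00304 and 0.00325. In edgeR without a block, the adjusted p-values were 0.162 and 0.102 with TMM and 0.0858 and 0.0129 with library size alone. Without femur replicate 2 the log2 differences were 1.19 and 1.24, and without mandible replicate 2 they were 1.24 and 0.75. Fits with a library left out have a site with 1 library and no spread of its own, so their p-values are not given. Over all alternatives the log2 difference ranged from 1.19 to 1.58 for Peak_8435 and from 0.75 to 1.68 for Peak_8436. Together these 2 peaks gave 18.0 and 16.5 CPM in the femur libraries and 31.2 and 53.9 CPM in the mandible libraries, 15.1% of the level of the locus. The other 7 peaks of the window summed to 184 and 135 CPM in femur and 170 and 182 CPM in mandible, a log2 difference of 0.14, or -0.11 within batch A against 0.43 within batch B. Over the whole window the sums were 202 and 151 CPM in femur and 202 and 235 CPM in mandible, and the exact permutation test gave a two-sided p of 0.667, where 0.333 is the smallest that 2 libraries against 2 allow.

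**Figure D4:**
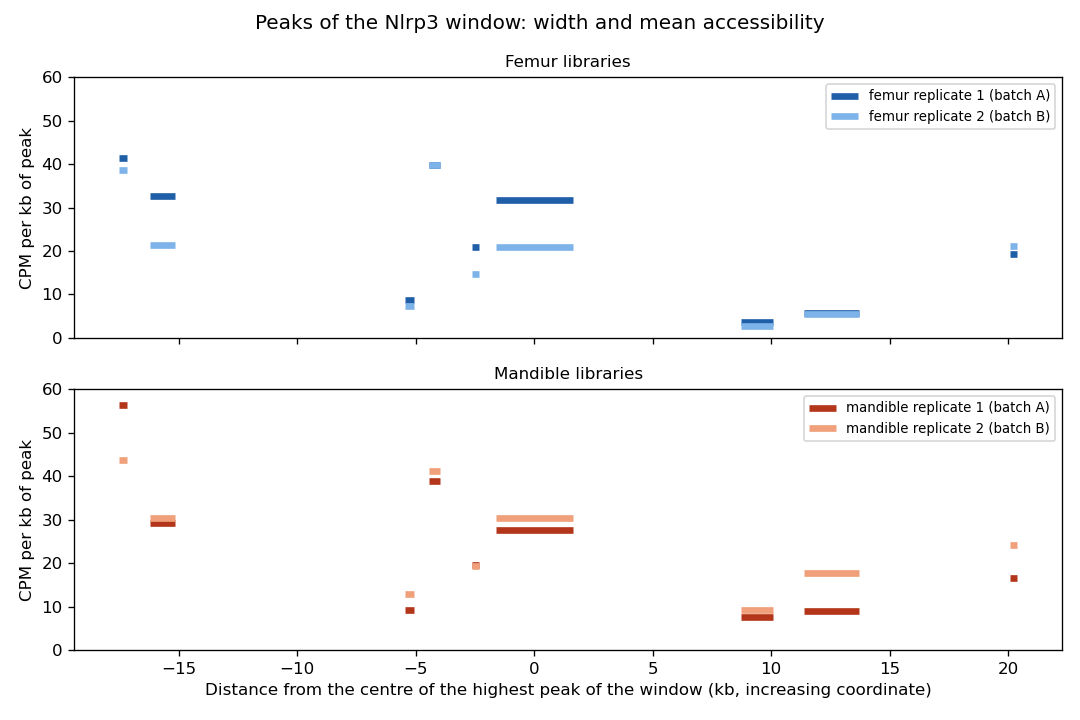
Peaks of the Nlrp3 window drawn as bars at their true width, by distance in kb from the centre of the highest peak (x) and CPM per kb of peak (y), with the femur libraries above and the mandible libraries below. The 2 broad bars to the right of the highest peak are Peak_8435 and Peak_8436, which are the least dense wide peaks of the window and are higher in both mandible libraries.

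Broad peaks of such low density were compared as a group, chosen after these values were seen, to place the pair. Among all peaks, 43 others were at least 1000 bp long and within the lowest 1% of level per kb. Their log2 difference had a median of 0.47, and 34 of the 43 (79.1%) were above 0, whereas the 8549 peaks of at least 1000 bp of any density, these 43 included, had a median of -0.0026 with 49.1% above 0. The 525 shorter peaks of the same low density had a median of 0.16 with 53.3% above 0, and both mandible libraries were above both femur libraries in 164 of them (31.2%) and below in 119. For the 43 broad peaks the median was 0.09 within batch A against 0.92 within batch B. For the 525 shorter peaks it was -0.04 against 0.23. In 23 of the 43 (53.5%) both mandible libraries were above both femur libraries, and in 3 they were below. Most of these 43 peaks were higher in mandible, as the Nlrp3 pair was. They were measured in the same 4 libraries as the pair and are not independent of it. Peaks were called in each site and then merged, so a shallow peak could enter the set through the site where it was higher. The part of this selection, of width and of density in the result was not tested.

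**Figure D5:**
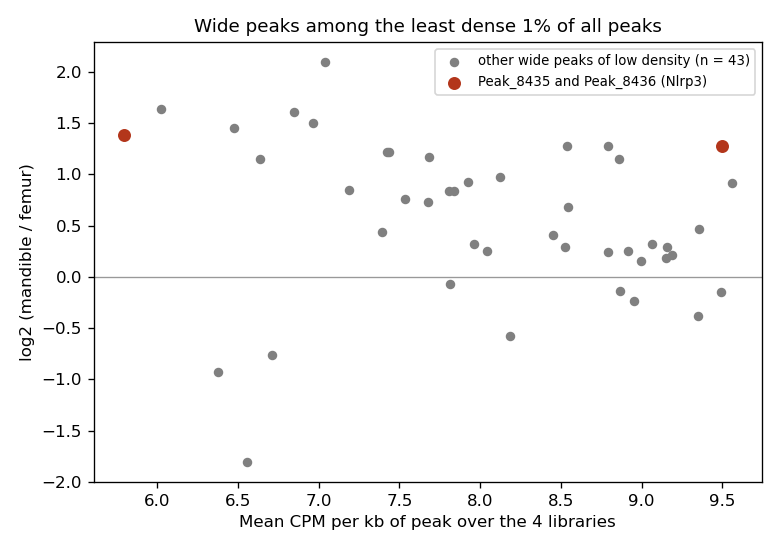
The log2 difference of mandible minus femur (y) against the mean CPM per kb of peak over the 4 libraries (x) for the 45 peaks of at least 1000 bp within the lowest 1% of level per kb; red points are the 2 Nlrp3 peaks and gray points the other 43. Most gray points lie above 0, and the 2 red points are within the range of the gray ones.

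Interleukin-1 beta is made as a precursor that the inflammasome matures, and Il1b neighbours Il1a, the gene of its sister cytokine, in the RefSeq gene order. In the Il1b window the strongest peak was Peak_31713 (chr2:129215010-129215842, 833 bp), with 54.3 and 50.4 CPM in the femur libraries and 53.6 and 55.4 CPM in the mandible libraries. At 64.1 CPM per kb it was the densest member and denser than 97.6% of all peaks. The sites overlapped, and the log2 difference was 0.06 (SE 0.127, edgeR's unadjusted p = 0.648). Peak_31714 (chr2:129222165-129223351, 1187 bp) had the lowest p-value of the window. Its levels were 37.1 and 22.3 CPM in femur and 37.9 and 41.3 CPM in mandible, so 1 femur library was low and the other was close to the mandible. The log2 difference was 0.42 (SE 0.197, edgeR's unadjusted p = 0.0478), or 0.03 within batch A against 0.89 within batch B, and it was 0.09 without femur replicate 2. Of the other 4 peaks, the weak Peak_31715 had both mandible libraries (2.48 and 2.20 CPM) below both femur libraries (2.77 and 3.08 CPM), and the rest overlapped. Summed over the window, Il1b had 140 and 130 CPM in femur and 146 and 149 CPM in mandible. Both mandible libraries were above both femur libraries, with a log2 difference of 0.13 (exact permutation test, two-sided p = 0.333, the smallest possible).

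TNF is a cytokine of macrophages and monocytes that activates NF-kappaB in target cells. Tnf sits between Ltb and Lta, the lymphotoxin genes, in the RefSeq order, so peaks of its window were not assigned to single genes. The strongest was Peak_23838 (chr17:35419376-35421381, 2006 bp), with 67.9 and 76.4 CPM in femur and 68.9 and 73.7 CPM in mandible. These values overlapped and the log2 difference was -0.02 with the smallest standard error of the members, 0.118 (edgeR's unadjusted p = 0.88). Its sign changed between normalizations, from -0.02 with loess to 0.15 with TMM. The lowest p-value belonged to the weak Peak_23832 (chr17:35401882-35402109, 228 bp), at 4.86 and 4.49 CPM in femur and 3.86 and 3.13 CPM in mandible. Both mandible libraries were lower, with a log2 difference of -0.41 (SE 0.274, edgeR's unadjusted p = 0.148). Peak_23834 also had both mandible libraries lower, at 9.05 and 10.6 CPM in femur and 8.81 and 9.03 CPM in mandible (log2 difference -0.14, SE 0.229). Peak_23833 had both higher, at 23.0 and 20.5 CPM in femur and 27.5 and 23.6 CPM in mandible (log2 difference 0.23, SE 0.182), and the other 6 peaks overlapped between the sites. Of these, Peak_23840, at 33.7 and 38.2 CPM in femur and 33.7 and 38.2 CPM in mandible, showed nearly the same values at both sites within each batch. Of the 9 peaks, 3 had a log2 difference above 0 and 6 below, and the window sums were 181 and 200 CPM in femur and 187 and 199 CPM in mandible, a log2 difference of 0.02 (exact permutation test, two-sided p = 1).

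Interleukin-6 acts on B cells, hepatocytes and bone cells. Peaks covered 1.93% of the Il6 window, the smallest share after that of Ptgs2 (1.54%). The next peak beyond the window, 977 bp past its end, was not a member. Peak_40071 (chr5:30217743-30218492, 750 bp) had 18.7 and 12.7 CPM in femur and 16.6 and 19.4 CPM in mandible, which overlapped, with a log2 difference of 0.20 (SE 0.220, edgeR's unadjusted p = 0.371). Within batch A it was -0.17, against 0.61 within batch B, and it was -0.06 without femur replicate 2. The second peak, Peak_40072 of 213 bp, had between 3.67 and 4.94 CPM in the 4 libraries. The locus sums were 23.5 and 16.9 CPM in femur and 21.6 and 23.1 CPM in mandible.

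CXCL1 and CXCL2 are closely related chemokines that attract neutrophils, and their genes lie next to each other. In their window Peak_41024 (chr5:91050847-91051885, 1039 bp) had the highest level and the lowest p-value. It had 26.7 and 25.8 CPM in femur and 31.5 and 29.3 CPM in mandible, so both mandible libraries were above both femur libraries. The log2 difference was 0.21 (SE 0.165, edgeR's unadjusted p = 0.219), close to equal within batch A (0.24) and batch B (0.18), and it ranged from 0.16 to 0.29 over all alternatives. Peak_41022 had 10.5 and 6.03 CPM in femur and 8.51 and 12.5 CPM in mandible, or -0.30 within batch A against 1.05 within batch B. The other 3 peaks also overlapped between the sites. Window sums were 67.1 and 57.8 CPM in femur and 70.4 and 67.2 CPM in mandible, so both mandible libraries were again above both femur libraries, narrowly in the case of femur replicate 1. The log2 difference was 0.14 (exact permutation test, two-sided p = 0.333, the smallest possible).

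PTGS2, also called cyclooxygenase-2, makes the prostaglandin precursor at sites of inflammation. The single peak of the Ptgs2 window, Peak_2359 (chr1:149975367-149976137, 771 bp), had 19.7 and 16.9 CPM in femur and 22.7 and 14.5 CPM in mandible. The highest and the lowest library were both from mandible, and the log2 difference was 0.02 (SE 0.221, edgeR's unadjusted p = 0.915), or 0.20 within batch A against -0.22 within batch B. It ranked above 76.3% of all peaks by level.

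The lowest count of any member in any library was 55, in Peak_31715. Counting error alone was 13.5% there if each count is taken as independent, which may be too small. In the strongest peaks of Il1b, Tnf and Nlrp3 counting error was at most 2.55% in each library on the same assumption. In these peaks the difference between the sites was smaller than its standard error.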

How the data were processed

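After trimming with Trimmomatic and alignment with Bowtie2 to GRCm39, the authors dropped reads of mapping quality under 20 and duplicate reads. Genrich called peaks on the duplicates of a site jointly, bedtools merged the peaks of both sites, and featureCounts 2.0.6 gave the deposited raw counts per merged peak. Both reads of a fragment could be counted, so counts are not independent molecules. No transposase shift is stated for the counts.

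Counts were tested in R 4.3.3 with edgeR 4.0.16 (glmQLFit, glmQLFTest), loess offsets (limma 3.58.1, pseudocount 0.5) and site as the only term, with Benjamini-Hochberg adjustment over all 57090 peaks. The default filter removed 0 peaks. Standard errors were the size of the log2 difference over the root of F. The fit was tested on simulated data. Alternatives were TMM, library size alone, DESeq2 1.42.0, other filters, the batch block, another threshold, longer peaks for the locus sums and each library left out. Thinning, crossed pairs and the comparison of wide peaks were chosen after seeing the data. Same-numbered libraries share a batch and its pooled mice by the labels and design text, which pairs them, although their deviations from the site means had a correlation of -0.167 across peaks. The peak with the highest mean CPM and the one with the lowest p of each window are given in full. The members and lists were chosen with earlier results of these data known. Lists of pathway and cell type genes were not analysed because gene positions on GRCm39 were not used here.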

Additional observations from a re-analysis of the deposited data

How the results depend on the processing

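With edgeR at a threshold of 0.05, 0 member peaks passed after adjustment (3 higher and 0 lower passed before it), and of all peaks 3 higher and 1 lower did. With library size alone 1 member was called higher, and 1 was lower before adjustment. DESeq2, the replicate block and the crossed pairs each called 2 members higher, and TMM, both filters, thinning and a threshold of 0.1 called 0. Over all peaks the counts higher and lower were 6 and 0 with TMM, 16 and 2 with library size alone, 12 and 0 with DESeq2, 49 and 11 with the replicate block, 184 and 23 with crossed pairs, 8 and 2 after thinning and 9 and 2 at a threshold of 0.1. With each library left out, between 0 and 4 members were called higher and 2 to 7 were higher before adjustment, and of all peaks 4 to 2141 were higher and 1 to 549 lower, the largest numbers coming without femur replicate 1. A site left with 1 library was assumed to vary like the other. For these fits the share of all peaks before adjustment is not given. The 2 to 7 members therefore cannot be compared with all peaks, and no conclusion is drawn from them. The median difference of the members was 0.022 with library size alone, which moved the median of all peaks to -0.12, so that 16 of 32 members were above 0. Relative to the median of all peaks it was 0.14 with loess, TMM, DESeq2 and library size alone.

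The log2 difference changed sign for 4 of the 10 peaks described in full. For Peak_23838 at Tnf it was 0.15 with TMM, 0.050 with library size alone and 0.16 with DESeq2, and with each library left out it ranged from -0.099 to 0.073. For Peak_2359 at Ptgs2 it was -0.054 with library size alone, -0.0086 with the replicate block and -0.0020 with crossed pairs, and from -0.33 to 0.30 with each library left out. That range was -0.058 to 0.51 for Peak_40071 at Il6 and -0.14 to 0.48 for Peak_8434 at Nlrp3, both below 0 without femur replicate 2 alone. Without femur replicate 1, the log2 differences of Peak_31714 at Il1b and Peak_8434 were 0.83 and 0.48, against 0.42 and 0.14 with all libraries. The cause was not tested. The replicate block changed the call of Peak_8435 and Peak_8436 and of no other member. Alternatives for promoters of pathway genes were not run, because gene positions on GRCm39 were not used here.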
